A study of Mus musculus with 6 samples.

Results

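The genes described here are the interferon response and antigen presentation genes, 48 symbols made up of 29 type I interferon-response genes and 19 genes that are typically induced by interferon gamma. The second class holds the GBP and IRG GTPases, Irf1, the immunoproteasome, the peptide transporter and MHC class I. Membership came from a list of symbols that was chosen with earlier results of these data known. The symbols were matched to the accessions of the array probes without use of signal values. Of the 48 symbols, 46 had a matched probe among the 20659 gene symbols found on the array, with 58 probes in all. Mx1 and Mx2 had none and are named only. Irf7, the transcription factor that amplifies type I interferon production, was well above background on 3 of the 6 arrays, 1 in each genotype. Oas3, an antiviral oligoadenylate synthetase, was well above background on 1 homozygous array. Neither was tested, which left 44 members among 24302 tested genes, 25 of type I and 19 of the gamma class. All 44 were well above background on both arrays of every genotype.

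The samples were 6 whole mouse embryos, taken at day 12, from 3 genotypes of the Stat3 allele labelled STAT3-K177K180R: wild type, 1 altered copy and 2 altered copies, with 2 embryos of each. Total RNA of every embryo was hybridised to 1 Agilent 1-colour array. STAT3 is the transcription factor that relays signals of the interleukin-6 family. Per the labels, the genotypes shared a womb and each group had 2 independent experiments, but no label says which embryos were littermates. The p-values therefore measure only the spread between these embryos, which may in part be technical. The labels name no mouse strain, and the allele was not described as limited to a tissue. The labels, the sample titles among them, call the wild-type group wild type mutant, which was read as wild type. The extraction text names tumor tissue while the titles name embryos, and the titles were followed. The 10 listed markers of embryonic nerve, muscle, heart, cartilage and epithelium all passed the filter on dim probes. In whole embryos, fewer cells of a type and less RNA per cell cannot be told apart.

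Both homozygous arrays lay on a slide of their own, while wild-type and heterozygous arrays shared the other slide, so in every comparison with homozygous embryos an effect of the slide and one of the genotype cannot be told apart. Between 70.7% and 77.3% of probes were well above background, with the lowest shares, 73.4% and 70.7%, on the homozygous arrays. Negative-control spots had a median signal of 26 to 27 on the 4 wild-type and heterozygous arrays and of 43.5 and 48 on the homozygous arrays. Bright-corner control spots differed far more, with a median processed signal of 214.6 to 558.5 on the former and of 3926 and 3081 on the latter. The 75th percentile of the signal, by which each array was scaled, was 957 to 1176 on the former and 787 and 723 on the latter. Comparisons between embryos below are made after this scaling. Across genes, correlations between arrays were 0.995 to 0.997 among the wild-type and heterozygous arrays, 0.989 between the homozygous arrays and 0.965 to 0.977 between homozygous and other arrays. The number of arrays, 2 per genotype, limits the precision of every value.

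Type I interferons signal through the receptor chains IFNAR1 and IFNAR2 to a complex that contains STAT2 and IRF9, binds the interferon-stimulated response element (ISRE) and drives a broad antiviral programme. Interferon gamma signals through IFNGR1 and IFNGR2 to the gamma-activated site (GAS) in promoters and induces Irf1, large GTPases that act on vacuoles holding pathogens, and the machinery that cuts, transports and presents peptides on MHC class I. Many genes respond to both interferons, so the division into classes is a convention, and STAT3 binds elements of the GAS type as well.

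In homozygous embryos, 21 of the 44 members were higher than in wild-type embryos, 1 was lower, and 22 did not pass the test (limma, Benjamini-Hochberg adjusted p below 0.05 over all tested genes). Over all genes, 29.2% passed, 14.8% higher and 14.3% lower. Higher genes made up 50.9% of all that passed, 70.0% when normexp corrected the background before scaling by the 75th percentile, and 53.5% with normexp and quantile scaling. The share was 38.9% without wild-type replicate 1 and 31.4% without wild-type replicate 2. The median difference of the members was 0.82 on the log2 scale, against 0.09 over all genes. Of the members 42 of 44 differences were above 0, against 13920 of 24302 over all genes, and members measured on the same arrays are not independent. Among the gamma class, 13 of 19 rose and 1 fell, with a median of 0.87. Among type I members, 8 of 25 rose and none fell, with a median of 0.80. The difference between the classes was not tested.

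These counts depended on single arrays, and so did the share of all genes that passed, whose range is given in the last section. The loss or gain of calls below is therefore not particular to the members. Without wild-type replicate 1 none of the 21 passed, although all 21 differences stayed above 0, with adjusted p-values between 0.0503 and 0.234. Without wild-type replicate 2, 4 of the 21 passed, namely Bst2, Irgm1, Irgm2 and Xaf1, and Gbp3 passed in addition. With either one of the heterozygous arrays left out, which changes only the estimate of the spread, 13 passed. Without homozygous replicate 1, 15 passed, and without homozygous replicate 2, 20 of the 21 and 9 other members did.

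**Figure D1:**
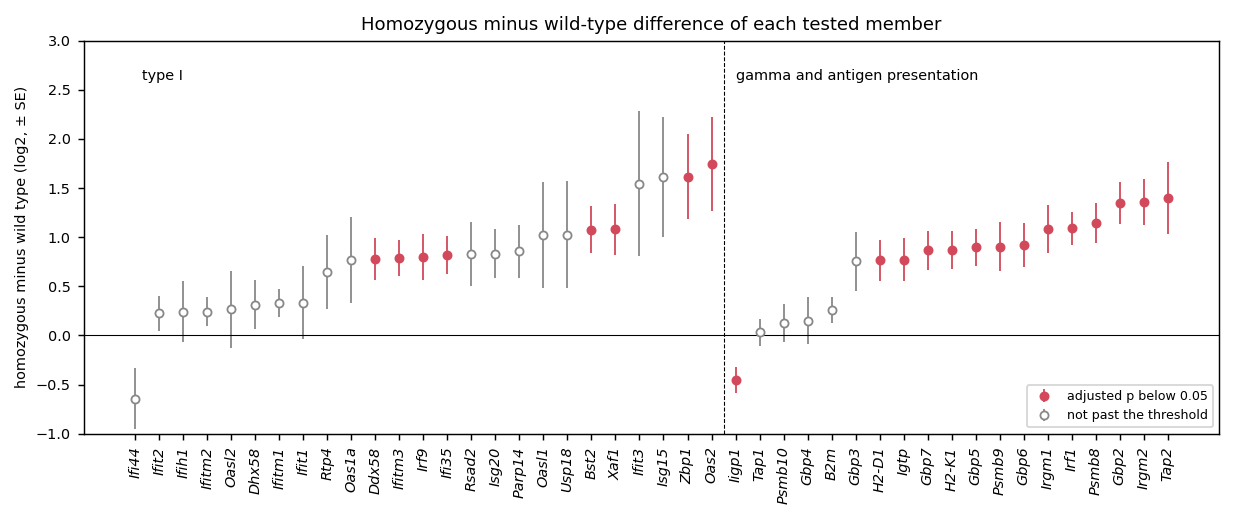
Homozygous minus wild-type difference (log2, vertical axis) of each of the 44 tested members, with bars of 1 standard error from limma. Type I members stand left of the dashed line and gamma members right of it, each class in order of its difference, and filled points passed the test. Oas2 is at 1.74 and Tap2 at 1.40, the right-hand ends of their classes, while the bars of type I members such as Ifit3 and Isg15 are wide.

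Values of single members are given as log2 levels relative to the 75th percentile of their array, replicate 1 first, so that a level below 0 is dimmer than that percentile. Levels of different genes come from different probes and are not compared with each other. The groups of members below are small. Their counts against wild type stand beside 14.8% higher and 14.3% lower over all genes and were not tested against these shares. Several of these families have closely similar members, among them the GBP, IRG, Oas, Ifit, Ifitm and H2 genes, and a probe may take up signal of a relative, so that the identity of single members is uncertain.

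Among the 10 tested GBP and IRG GTPases, 7 rose, Iigp1 fell, and Gbp3 and Gbp4 did not pass. Guanylate-binding proteins coat intracellular pathogens and the vacuoles that hold them. Gbp2 stood at -3.24 and -3.28 in wild-type, -3.32 and -2.90 in heterozygous and -1.66 and -2.15 in homozygous embryos. Both homozygous embryos were above all 4 others, and the difference from wild type was 1.35 ± 0.22 (SE, adjusted p = 0.00782), a 2.55-fold higher signal. Gbp5, which also promotes inflammasome activity, stood at -5.36 and -5.47 in wild-type, -5.66 and -5.23 in heterozygous and -4.64 and -4.40 in homozygous embryos. Its difference was 0.90 ± 0.18 (SE, adjusted p = 0.0162), with no overlap between homozygous and other embryos. With normexp background correction it was 0.56 after scaling by the 75th percentile (adjusted p = 0.00565) and 0.32 after quantile scaling (adjusted p = 0.0311). Gbp6 was at -3.64 and -3.41 in wild-type, -3.88 and -3.36 in heterozygous and -2.78 and -2.42 in homozygous embryos, with a difference of 0.92 ± 0.22 (SE, adjusted p = 0.0268). Gbp7 was at -3.71 and -3.62 in wild-type, -3.80 and -3.40 in heterozygous and -3.00 and -2.60 in homozygous embryos, with a difference of 0.87 ± 0.20 (SE, adjusted p = 0.0236). With normexp and quantile scaling Gbp6 differed by 0.61 and Gbp7 by 0.51 (adjusted p = 0.0217 and 0.0265). In Gbp5, Gbp6 and Gbp7 homozygous replicate 2 was the higher of its pair, unlike in Gbp2. Gbp3 had both homozygous embryos above all others but a wide spread between the wild-type embryos (-3.31 and -2.42), and its difference was 0.75 ± 0.30 (SE, adjusted p = 0.105).

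The M-type IRG proteins Irgm1, Irgm2 and Igtp protect host membranes from the effector IRG proteins. Irgm2 stood at -2.07 and -1.80 in wild-type, -1.81 and -1.75 in heterozygous and -0.25 and -0.90 in homozygous embryos. It had the highest difference of the 10 GTPases, 1.36 ± 0.23 (SE, adjusted p = 0.00933), or 2.57-fold. Irgm1 stood at -1.79 and -1.28 in wild-type, -1.68 and -1.35 in heterozygous and -0.22 and -0.69 in homozygous embryos, a difference of 1.08 ± 0.24 (SE, adjusted p = 0.0221). Igtp stood at -1.19 and -0.73 in wild-type, -1.13 and -0.88 in heterozygous and 0.03 and -0.40 in homozygous embryos, a difference of 0.77 ± 0.22 (SE, adjusted p = 0.0439). All 3 were higher in both homozygous embryos than in any other embryo, and in all 3 homozygous replicate 1 was the higher of its pair. Iigp1 is an effector IRG protein that is recruited to pathogen vacuoles. Its brighter probe ran against the other IRG genes, at -1.99 and -2.00 in wild-type, -1.80 and -1.91 in heterozygous and -2.35 and -2.55 in homozygous embryos. Both homozygous embryos were below all others and the difference was -0.46 ± 0.13 (SE, adjusted p = 0.0456). The dimmer Iigp1 probe gave -4.59 and -4.75 in wild-type, -4.73 and -4.39 in heterozygous and -4.35 and -4.39 in homozygous embryos. That probe differed by 0.30 ± 0.16 (SE, adjusted p = 0.197) in the opposite direction, so the direction of Iigp1 depended on the probe. Iigp1 passed as lower under 4 of the 16 alternatives, and not with either wild-type array left out (adjusted p = 0.21 and 0.204).

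Irf1, the transcription factor that interferon gamma induces early, had the smallest adjusted p of the 44 members. It stood at -0.02 and 0.04 in wild-type, 0.33 and 0.14 in heterozygous and 1.29 and 0.91 in homozygous embryos. Homozygous embryos lay above all others, and the difference from wild type was 1.09 ± 0.17 (SE, adjusted p = 0.00676), a 2.13-fold higher signal. Both heterozygous embryos were also above both wild-type embryos, by 0.22 ± 0.17 (SE, adjusted p = 1), which did not pass.

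Among genes of antigen processing, 3 of 5 rose. Psmb8 and Psmb9 encode catalytic subunits that replace the constitutive ones in the immunoproteasome. Psmb8 stood at -3.37 and -3.23 in wild-type, -3.31 and -2.93 in heterozygous and -1.94 and -2.38 in homozygous embryos, with a difference of 1.14 ± 0.21 (SE, adjusted p = 0.011). Psmb9 stood at -3.49 and -3.55 in wild-type, -3.51 and -3.21 in heterozygous and -2.26 and -2.97 in homozygous embryos, with a difference of 0.90 ± 0.25 (SE, adjusted p = 0.0383). Psmb10, the third replacement subunit, overlapped between genotypes and differed by 0.13 ± 0.19 (SE, adjusted p = 0.633). Tap2, one chain of the transporter that carries peptides into the endoplasmic reticulum, stood at -3.15 and -3.04 in wild-type, -3.14 and -3.02 in heterozygous and -1.07 and -2.31 in homozygous embryos. Its difference was 1.40 ± 0.37 (SE, adjusted p = 0.0345), but homozygous replicate 1 was 1.24 above replicate 2, and without replicate 1 the difference was 0.78 (adjusted p = 0.0106). Without the same array the difference of Psmb9 was 0.55 (adjusted p = 0.0493), and with normexp and quantile scaling it was 0.52 and did not pass (adjusted p = 0.0834). Tap1, the partner chain of the transporter, differed by 0.03 ± 0.14 (SE, adjusted p = 0.874), so the transporter genes did not share a call, and the difference between them was not tested.

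The MHC class I heavy chains H2-K1 and H2-D1 display peptides at the cell surface together with the light chain B2m. H2-K1 stood at 1.13 and 1.28 in wild-type, 0.98 and 1.44 in heterozygous and 2.22 and 1.93 in homozygous embryos. Its difference was 0.87 ± 0.20 (SE, adjusted p = 0.0222), and a second, dimmer H2-K1 probe gave 0.76 ± 0.24 (SE, adjusted p = 0.0561). H2-D1 stood at -0.36 and -0.39 in wild-type, -0.58 and -0.17 in heterozygous and 0.61 and 0.17 in homozygous embryos, with a difference of 0.76 ± 0.21 (SE, adjusted p = 0.0372). For both heavy chains the homozygous embryos were above all others, and the heterozygous mean equalled the wild-type mean to 2 decimals. B2m stood at 2.79 and 2.74 in wild-type, 2.76 and 2.98 in heterozygous and 3.01 and 3.03 in homozygous embryos. Both homozygous values of B2m were above the other 4, but by a small margin, and the difference of 0.26 ± 0.13 (SE, adjusted p = 0.183) did not pass.

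Of the 4 membrane proteins that restrict virus entry or release, 2 rose. Bst2, or tetherin, holds budding virus at the cell surface. It stood at -1.42 and -0.68 in wild-type, -1.17 and -1.09 in heterozygous and 0.01 and 0.05 in homozygous embryos. The homozygous embryos agreed closely and lay above all others, while wild-type replicate 1 was lower than replicate 2. The difference was 1.08 ± 0.24 (SE, adjusted p = 0.0208), and 0.71 without wild-type replicate 1 (adjusted p = 0.0737). Ifitm3, which blocks fusion of viruses in endosomes, stood at 0.84 and 0.87 in wild-type, 1.15 and 0.80 in heterozygous and 1.83 and 1.47 in homozygous embryos, with a difference of 0.79 ± 0.18 (SE, adjusted p = 0.0237). Its relatives Ifitm1 and Ifitm2 had both homozygous embryos above all others and differences of 0.33 (adjusted p = 0.121) and 0.24 (adjusted p = 0.238), which did not pass.

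Among the 17 tested type I effectors, 4 rose and none fell, where 14.8% of all genes rose and 14.3% fell. Oas2, which makes the oligoadenylates that activate RNase L, stood at -3.82 and -2.80 in wild-type, -2.94 and -3.12 in heterozygous and -0.93 and -2.21 in homozygous embryos. It had the largest difference of the members that passed, 1.74 ± 0.48 (SE, adjusted p = 0.0388), or 3.34-fold. Zbp1, a sensor of Z-form nucleic acids that can trigger cell death, stood at -4.90 and -5.05 in wild-type, -4.75 and -4.77 in heterozygous and -2.62 and -4.10 in homozygous embryos. Its difference was 1.62 ± 0.43 (SE, adjusted p = 0.0361). Both genes rested on homozygous replicate 1 in size: without it the differences were 1.1 for Oas2 (adjusted p = 0.0708) and 0.88 for Zbp1 (adjusted p = 0.00695). Xaf1, an antagonist of the apoptosis inhibitor XIAP, stood at -4.83 and -4.14 in wild-type, -4.35 and -4.49 in heterozygous and -3.18 and -3.63 in homozygous embryos, with a difference of 1.08 ± 0.26 (SE, adjusted p = 0.0275). Ifi35, an interferon-induced leucine zipper protein, stood at -3.74 and -3.43 in wild-type, -3.87 and -3.46 in heterozygous and -2.68 and -2.85 in homozygous embryos, with a difference of 0.82 ± 0.19 (SE, adjusted p = 0.0249). In these 4 genes both homozygous embryos were above every other embryo. With normexp and quantile scaling only Ifi35 of the 4 passed, at 0.46 (adjusted p = 0.0468). Under that setting Oas2 was at 1.21 (adjusted p = 0.0539), Zbp1 at 0.83 (adjusted p = 0.0755) and Xaf1 at 0.47 (adjusted p = 0.0571). With normexp and the 75th percentile Zbp1 was at 1.00 and Xaf1 at 0.65, and both passed (adjusted p = 0.00944 and 0.00843).

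The effectors that did not pass included some with large differences. Isg15, a ubiquitin-like protein that is joined to other proteins, stood at -1.51 and -0.50 in wild-type, -1.20 and -1.31 in heterozygous and 1.55 and -0.34 in homozygous embryos. Homozygous replicate 1 was 1.89 above replicate 2, wild-type replicate 2 was 1.02 above replicate 1, and the difference of 1.61 ± 0.61 (SE, adjusted p = 0.094) did not pass. Ifit3, an RNA-binding antiviral protein, had -3.66 and -3.12 in wild-type, -3.68 and -3.45 in heterozygous and -0.58 and -3.11 in homozygous embryos. Only homozygous replicate 1 stood apart, and the difference was 1.54 ± 0.74 (SE, adjusted p = 0.159). Usp18, which removes ISG15 and dampens receptor signalling, and Oasl1 had the same form, with 1 homozygous embryo 1.70 and 1.73 above the other and differences of 1.02 (adjusted p = 0.197) and 1.02 (adjusted p = 0.195). Isg20, an RNA exonuclease, and Parp14, an ADP-ribosyltransferase, came close to the threshold with 0.83 (adjusted p = 0.0502) and 0.86 (adjusted p = 0.0557). The other 7 effectors that did not pass had differences from -0.65 (Ifi44) to 0.83 (Rsad2). Ifi44 was the only tested effector with a difference below 0, -0.65 ± 0.31 (SE, adjusted p = 0.161), which became 0.0004 with normexp and scaling by the 75th percentile.

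Of the 3 cytosolic RNA sensors, Ddx58 (RIG-I) rose. It stood at -1.67 and -1.39 in wild-type, -1.54 and -1.57 in heterozygous and -0.47 and -1.04 in homozygous embryos, with a difference of 0.77 ± 0.21 (SE, adjusted p = 0.0396), or 0.49 (adjusted p = 0.0631) without homozygous replicate 1. Ifih1 (MDA5) and Dhx58 (LGP2) overlapped between genotypes and differed by 0.24 (adjusted p = 0.583) and 0.31 (adjusted p = 0.369). Irf9, the DNA-binding subunit of the complex that type I interferon activates, stood at -0.06 and 0.48 in wild-type, 0.06 and 0.13 in heterozygous and 1.24 and 0.77 in homozygous embryos. Both homozygous embryos were above the other 4, and the difference was 0.80 ± 0.23 (SE, adjusted p = 0.0469), falling to 0.52 (adjusted p = 0.234) without wild-type replicate 1.

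**Figure D2:**
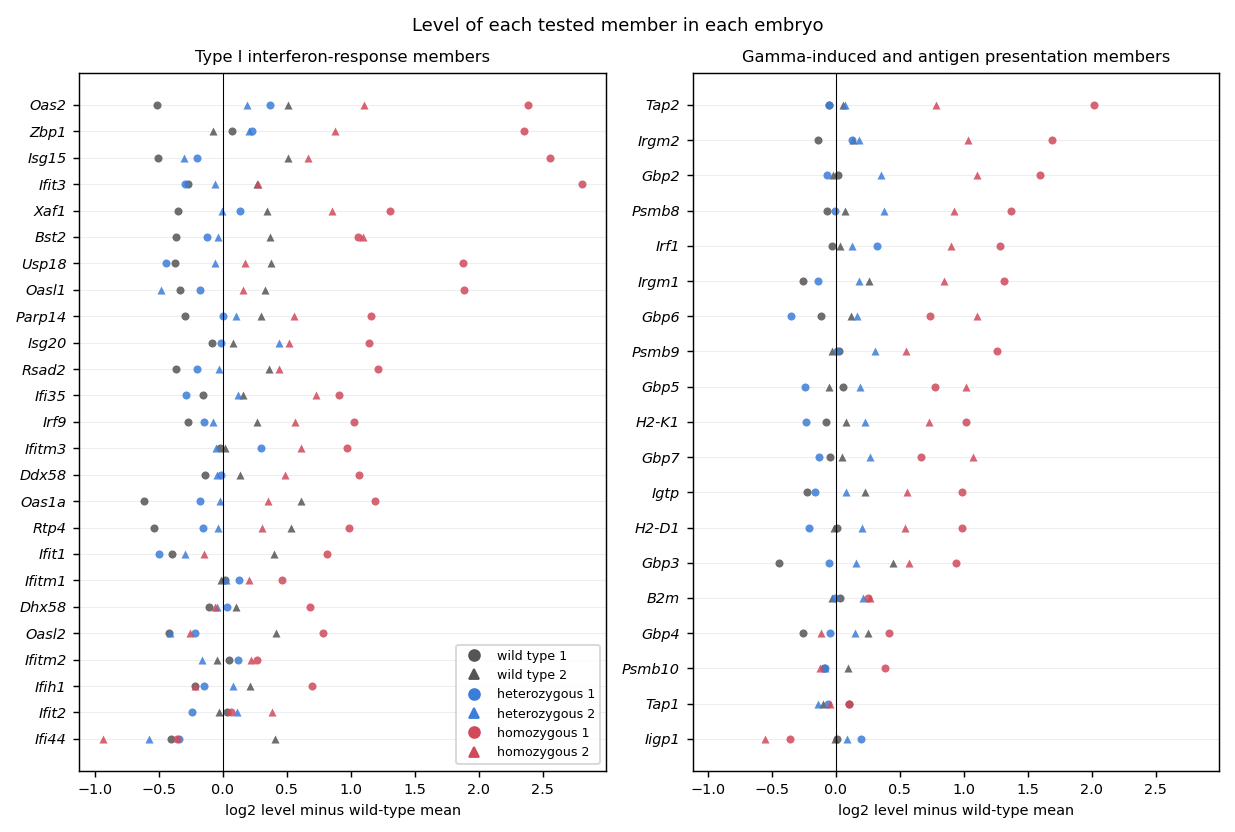
Log2 level of each tested member (rows) in each of the 6 embryos, less the mean of the wild-type embryos (horizontal axis, log2). Grey, blue and red mark wild-type, heterozygous and homozygous embryos, circles replicate 1 and triangles replicate 2. In Ifit3 the circle of homozygous replicate 1 stands at 2.81 and the triangle of replicate 2 at 0.28, while in Bst2 they stand at 1.06 and 1.1.

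The wild-type embryos, and likewise the homozygous embryos, differed from each other more in the type I class than in the gamma class, while the heterozygous embryos did not. The median standard deviation within genotypes was 0.42 for type I members, 0.25 for gamma members and 0.16 for all genes. The median absolute difference between the wild-type embryos was 0.60 for type I and 0.14 for gamma members, against 0.11 for all genes, and between the homozygous embryos it was 0.68, 0.43 and 0.25. Between the heterozygous embryos it was 0.18 for type I, 0.25 for gamma members and 0.17 for all genes. Wild-type replicate 2 was above replicate 1 in 21 of 25 type I members (84.0%), in 12 of 19 gamma members (63.2%) and in 47.7% of all genes. Homozygous replicate 1 was above replicate 2 in 23 of 25 type I members (92.0%), in 15 of 19 gamma members (78.9%) and in 56.5% of all genes. Heterozygous replicate 1 was above replicate 2 in 12 of 25 type I and 4 of 19 gamma members. Members are not replicates of an embryo, so these shares are a description with no test.

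Homozygous replicate 1 held the highest of the 6 values in 36 of 44 members (81.8%), against 29.9% of all genes. Relative to the wild-type mean, the median type I member stood at 1.06 in homozygous replicate 1 and 0.39 in replicate 2, against 0.30 in wild-type replicate 2. The median gamma member stood at 0.99 and 0.72 in the homozygous embryos, against 0.06 in wild-type replicate 2. Over all genes the medians of the homozygous embryos were 0.09 and 0.07. Both homozygous embryos were above all other embryos in 30 of 44 members (68.2%), against 34.1% of all genes. That count was 15 of 25 for type I and 15 of 19 for gamma members. At a mean difference of at least 2-fold, 8 type I members were counted, of which 4 passed the test, and 6 gamma members, all of which passed. Over all genes 917 reached 2-fold and 825 of them passed.

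**Figure D3:**
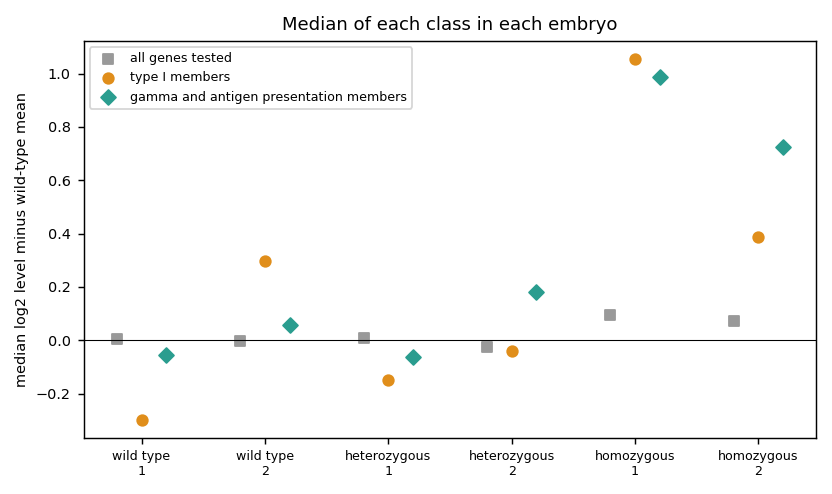
Median log2 level of each class in each of the 6 embryos, less each gene's wild-type mean (vertical axis, log2). Orange circles are the 25 type I members, green diamonds the 19 gamma members and grey squares all 24302 tested genes. The type I medians run from -0.30 in wild-type replicate 1 to 1.06 in homozygous replicate 1, and the gamma medians of the homozygous embryos are 0.99 and 0.72.

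Against heterozygous embryos, 18 of 44 members were higher in homozygous embryos and 1, Iigp1, was lower. Over all genes 24.7% passed, 12.1% higher and 12.6% lower. This comparison shares the homozygous arrays with the one against wild type, so the 2 are not independent. The median difference was 0.81, against 0.10 over all genes, with 6 of 25 type I and 12 of 19 gamma members higher. Among the GTPases the differences were 1.21 (adjusted p = 0.0157) for Irgm2, 1.21 (adjusted p = 0.013) for Gbp2 and 1.06 (adjusted p = 0.0269) for Irgm1. Irf1 differed by 0.87 (adjusted p = 0.0159), H2-K1 by 0.87 (adjusted p = 0.0256) and Psmb8 by 0.96 (adjusted p = 0.0219). Bst2 differed by 1.15 (adjusted p = 0.0194) and Irf9 by 0.91 (adjusted p = 0.0364). Oas2, Zbp1 and Psmb9, which passed against wild type, gave 1.46 (adjusted p = 0.0689), 1.40 (adjusted p = 0.0597) and 0.74 (adjusted p = 0.0717) here. Isg15 gave 1.86 (adjusted p = 0.0705). The count of 18 fell with either heterozygous array left out. The share of all genes that passed also changed when single arrays were left out, with the range given in the last section. Homozygous and heterozygous arrays did not overlap in 36 members that were higher (37.9% of all genes) and 1 that was lower (26.9%). Against wild type these counts were 31 (40.2%) and 1 (29.4%).

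Between heterozygous and wild-type embryos no member passed, and none had an unadjusted p below 0.05. Over all genes 0% passed, and 532 of 24302 had an unadjusted p below 0.05. The differences of the 44 members ran from -0.46 to 0.28 with a median of -0.01, equal to the median of all genes to 2 decimals. Both heterozygous embryos were above both wild-type embryos in 4 members, Irf1, Iigp1, Ifitm1 and Zbp1, and below them in none (12.7% and 14.9% of all genes). With 2 arrays a side, this does not show that the genotypes were alike.

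For 9 members, 2 probes each were kept. Their differences had the same sign in 8 of 9 members, against 54.5% of 4424 named genes with such a pair, and Iigp1 was the exception. The 8 include Ifih1, whose dimmer probe passed the filter only through the homozygous embryos, and Gbp6, whose dimmer probe was near 0. Irgm1 passed on both probes, at 1.08 ± 0.24 and 0.93 ± 0.21 (SE, adjusted p = 0.0228 and 0.0224 in the fit over probes). The other called members with a pair, Ddx58, Gbp6 and H2-K1, passed on the brighter probe and not on the dimmer. For Gbp6 the dimmer probe gave 0.06 ± 0.58 (SE), with the homozygous embryos at -2.62 and -4.62, and the mean of both probes gave 0.49 (adjusted p = 0.222). For Ddx58 the dimmer probe gave 0.26 ± 0.15 (SE, adjusted p = 0.25). The dimmer Isg15 probe gave 0.21 ± 0.54 (SE, adjusted p = 0.79). Oas1a, another oligoadenylate synthetase, gave 0.77 ± 0.44 (SE) on the brighter probe and 1.56 ± 0.43 (SE, adjusted p = 0.0411) on the dimmer. The dimmer Ifih1 probe was not well above background in any wild-type or heterozygous embryo and was so in both homozygous embryos. Its homozygous mean was 1.98-fold above the lowest signal well above background on the wild-type arrays. That lowest signal was itself higher on the homozygous arrays (-6.18 and -5.84) than on both wild-type arrays (-6.63). The fold is therefore no lower bound on a difference in expression, and the fitted difference did not pass (adjusted p = 0.0681).

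**Figure D4:**
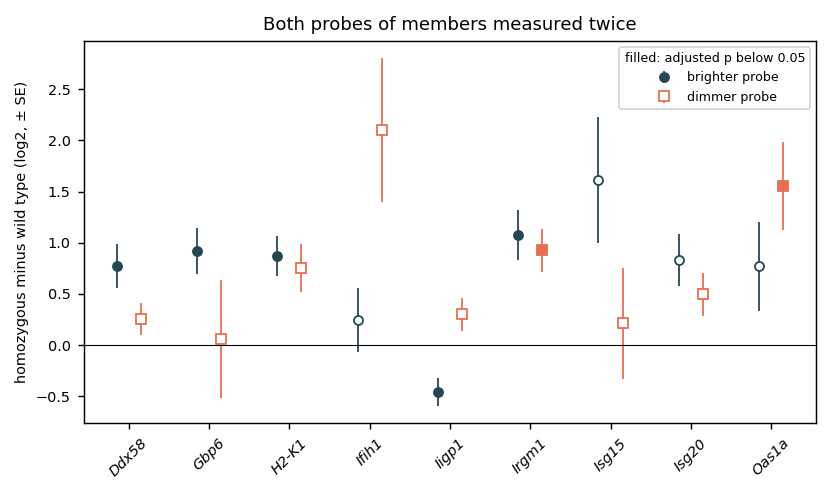
Homozygous minus wild-type difference (log2, vertical axis) on the brighter probe (dark circles) and the dimmer probe (orange squares) of the 9 members with 2 kept probes, with bars of 1 standard error from limma and filled symbols for adjusted p below 0.05. Both Irgm1 symbols are filled, at 1.08 and 0.93, and the Iigp1 symbols lie at -0.46 and 0.30, on opposite sides of 0. The dimmer Ifih1 probe was below background in wild type, so that its plotted difference is the fitted one and not a measured size.

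Promoter sequences are shown because many members moved together and because the elements of both interferon pathways have known letters. They come from RefSeq on GRCm38.p6, a later build than the mm9 annotation of the array, and cover 250 bases before and 50 after each transcript start. Windows were found for 36 members, 43 windows in all. An ISRE was searched as 2 copies of GAAA in the same direction with any 2 bases between them, on both strands, and a GAS as TTCNNNGAA, which reads the same on both strands, and matches of the 2 may overlap. Each stretch below lies upstream of the start and runs 5' to 3' on the gene's strand, with matches in capitals. Irf1 (chr11:53769894-53769962, plus strand) and Psmb8 (chr17:34198068-34198136, plus strand) hold a GAS match alone, Gbp2 (chr3:142620574-142620643, plus strand) and Isg15 (chr4:156200845-156200926, minus strand) hold ISRE matches alone, and Irgm2 (chr11:58214872-58214952, plus strand), Igtp (chr11:58199481-58199555, plus strand) and Bst2 (chr8:71537557-71537638, minus strand) hold both.
Irf1: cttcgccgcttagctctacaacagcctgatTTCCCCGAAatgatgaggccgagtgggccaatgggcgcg
Psmb8: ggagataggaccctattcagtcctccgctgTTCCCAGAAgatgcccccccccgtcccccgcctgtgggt
Gbp2: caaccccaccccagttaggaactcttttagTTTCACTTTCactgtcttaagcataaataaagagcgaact
Isg15: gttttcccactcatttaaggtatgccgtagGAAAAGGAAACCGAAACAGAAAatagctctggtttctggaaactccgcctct
Irgm2: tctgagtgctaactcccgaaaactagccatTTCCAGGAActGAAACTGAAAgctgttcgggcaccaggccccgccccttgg
Igtp: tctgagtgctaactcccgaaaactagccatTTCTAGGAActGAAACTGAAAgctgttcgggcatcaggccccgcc
Bst2: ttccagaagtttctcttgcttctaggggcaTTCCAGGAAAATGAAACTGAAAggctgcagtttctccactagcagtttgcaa

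The Irgm2 and Igtp stretches were identical at 73 of the 75 aligned bases, and both genes rose. In Bst2 the GAS match overlaps an ISRE match. An ISRE match was found in 19 of 36 member genes (52.8%), against 3.99% of 27025 genes and 3.44% of all 32851 windows. A GAS match was found in 12 of 36 (33.3%), against 9.55% of genes and 8.30% of windows. The ISRE share was 11 of 21 type I and 8 of 15 gamma members, and the GAS share 6 of 21 and 6 of 15. Of the 17 members with a window that rose, 9 held an ISRE and 9 a GAS match. Of the 17 tested members with a window that did not pass, 9 held an ISRE and 3 a GAS match. These are counts of letters with no test, and a match is not shown to be a bound site.

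Upstream of the members, most interferon genes were not detected. Ifnb1, Ifng, Ifne, Ifnk and Ifna4 were not well above background on any array. Ifna2, whose probe may take up its many relatives, differed by 0.61 (adjusted p = 0.152) from wild type and by 1.21 (adjusted p = 0.029) from heterozygous embryos. Of 8 receptor chains and kinases, 2 rose against wild type, Ifnar2 by 0.47 (adjusted p = 0.0406) and Ifngr2 by 0.53 (adjusted p = 0.0231), and none fell. Jak2, a kinase bound to the gamma receptor, gave 0.42 (adjusted p = 0.0529), and Ifnar1 and Ifngr1 gave 0.06 (adjusted p = 0.786) and 0.16 (adjusted p = 0.352). Against heterozygous embryos, Ifngr2 (adjusted p = 0.0365) and Jak2 (adjusted p = 0.0461) passed and Ifnar2 did not (adjusted p = 0.0649). Over all genes 14.8% were higher and 14.3% lower than in wild type, and the count of this list was not tested against these shares. Stat3, the targeted gene, stood at 0.93 and 0.93 in wild-type, 1.16 and 0.92 in heterozygous and 1.51 and 1.21 in homozygous embryos, and the difference of 0.44 ± 0.16 (SE, adjusted p = 0.0833) did not pass. Whether its probe distinguishes the altered allele is not known, so its level does not check the genotype labels.

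Of 9 tested regulators, 1 rose and 1 fell against wild type, where 14.8% of all genes rose and 14.3% fell. The counts of this and the other small lists below were not tested against these shares. Socs1, the feedback inhibitor of interferon receptors, stood at -1.22 and -1.30 in wild-type, -0.80 and -1.21 in heterozygous and -0.04 and -0.20 in homozygous embryos and rose by 1.14 ± 0.17 (SE, adjusted p = 0.00636). Irf2, a repressor at many IRF1 sites, fell, with -0.73 ± 0.17 (SE, adjusted p = 0.0218). Stat2, Irf3, Irf8, Nlrc5, Ciita and Socs3 did not pass, with differences from -0.94 to 0.61. Of 9 tested genes of nucleic acid sensing outside the list, 2 rose: Tlr7, the endosomal sensor of single-stranded RNA, by 1.19 (adjusted p = 0.00579), and Eif2ak2, the kinase PKR, by 0.53 (adjusted p = 0.0405). None of them fell.

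In the machinery around the antigen presentation members, changes were not of 1 direction. The constitutive proteasome subunits Psmb5 and Psmb7, which Psmb8 and Psmb10 replace, rose by 0.50 (adjusted p = 0.0307) and 0.68 (adjusted p = 0.0212), while Psmb6 gave -0.13 (adjusted p = 0.489). Psme2, a subunit of the interferon-inducible proteasome activator, fell, with -0.66 (adjusted p = 0.0321), and its partner Psme1 gave 0.26 (adjusted p = 0.162). Among 5 genes of class I loading, only the chaperone Canx passed, with 1.17 (adjusted p = 0.0319), while its wild-type embryos stood at log2 levels of 3.59 and 2.62. None of the 3 tested class II genes passed, and H2-Eb1 gave 1.11 (adjusted p = 0.0841).

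Of 7 tested neutrophil markers, 6 were higher in homozygous than in wild-type embryos, among them Elane by 1.27 (adjusted p = 0.00973) and S100a9 by 1.13 (adjusted p = 0.023). Over all genes 14.8% were higher and 14.3% lower in this comparison. One of the 6, Cd177, was not well above background on any wild-type or heterozygous array, so it entered the test only through the homozygous embryos. Against heterozygous embryos 2 of the 7 passed, Elane (adjusted p = 0.0124) and Cd177 (adjusted p = 0.0449). The summed signal of the 7, relative to each array's 75th percentile, was 10.8 and 11.8 in wild-type, 12.6 and 16.0 in heterozygous and 31.0 and 18.6 in homozygous embryos, so that homozygous replicate 1 was again the highest. Of 9 macrophage markers, 3 were higher than in wild type (Cx3cr1, Fcer1g and Mrc1) and 1 was lower (Aif1). Against heterozygous embryos none was higher and Aif1 was lower. Summed signals were 10.8 to 12.0 in the 4 wild-type and heterozygous embryos and 13.7 and 12.0 in homozygous embryos. Of 5 lymphocyte markers, Cd3g, on no wild-type array well above background, was higher than in wild type and Cd4 lower. Against heterozygous embryos only Cd4 passed, as lower. Sums were 1.83 to 2.43 in wild-type and heterozygous embryos and 1.56 and 1.59 in homozygous embryos. The B-cell marker Ms4a1 and the NK marker Ncr1 were not well above background on any array. Against wild type, none of 6 endothelial, 6 embryonic erythroid or 5 germ cell markers passed, and 3 of 6 fetal hepatocyte markers were higher. Of the 2 tested trophoblast markers Prl3d1 was higher and Gcm1 lower, and of the 10 markers of the whole embryo Myog was higher and Tnnt2 lower. Against heterozygous embryos, 2 of the 6 erythroid markers were higher, Hba-a1 by 0.47 (adjusted p = 0.046) and Hbb-y by 0.59 (adjusted p = 0.0456). Prl3d1 and Myog did not pass in that comparison. The part of these cells in the result was not tested.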

How the data were processed

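The deposited intensity values were made with Agilent Feature Extraction 11.0.1.1, per the file headers, which subtracted the background of each array and did not normalize between arrays; the probes were annotated to mm9. A value table deposited by the authors is on a log2 scale with equal quantiles in its 6 columns. How it was made is not given in the sources used here, and it served as an alternative. Each array held 44397 spots, including 1377 controls. Control and outlier spots were left out, spots of a probe were averaged (39429 probes), and the processed intensity was log2 transformed, with no pseudocount, less the array's 75th percentile. A probe was kept if 1 or more genotypes had it well above background on both arrays (29910 probes). Accessions were matched to symbols through a RefSeq table of GRCm38.p6, for names only (69.1% of probes). A gene stood by its brightest kept probe measured on all 6 arrays, which gave 24302 genes.

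One limma 3.58.1 model of genotype over all 6 arrays (R 4.3.3; 3 residual and 3.31 prior degrees of freedom) gave the 3 comparisons, with Benjamini-Hochberg adjustment over all genes and a threshold of 0.05. The model was tested on simulated data. The fits over all probes, used for probe pairs, adjust over probes, so their adjusted p differs slightly. Genotypes and replicate numbers came from the sample titles. The members, the gene and marker lists and the tests were chosen with earlier results of these data known. All members could be named. One gene of the comparison lists is not reported here. Values per embryo are given for each member past the threshold, for B2m, Isg15 and Irf9, for members whose probes disagreed, and for a few others chosen after their values were seen. Alternatives were background correction by normexp with an offset of 50 on the median spot signal, quantile normalization, the authors' table, the filter, the choice of probe, the samples in the fit, a replicate block and each array left out in turn.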

Additional observations from a re-analysis of the deposited data

How the results depend on the processing

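The 21 higher members against wild type numbered 10 with no filter on dim probes, 13 in a fit of the 2 genotypes alone, 2 among the 9 members with a dimmer probe, and 0 to 29 with 1 array left out. The 18 against heterozygous embryos numbered 31 with normexp and the 75th percentile, 8 with no filter, 9 in the fit of 2 genotypes, 2 on the dimmer probe and 0 to 29 with 1 array left out. The count of 1 lower member became 0 against wild type under normexp with either scaling, quantile normalization, no filter, the mean of probes, the dimmer probe and the fit of 2 genotypes, and 0 against heterozygous embryos under normexp with the 75th percentile, the mean of probes, the dimmer probe and the fit of 2 genotypes; with 1 array left out it was 0 to 1 in both. The percent of all genes called was 18.1 against wild type and 15.2 against heterozygous embryos with no filter, and against heterozygous embryos 48.4 with normexp and the 75th percentile and 12.8 in the fit of 2 genotypes. With 1 array left out it was 7.56 to 36.2, 6.67 to 32.3 and, for heterozygous against wild type, 0 to 0.0247. The gamma median was 0.71 and 0.61 with normexp and the 75th percentile or quantile scaling and 0.53 on the dimmer probe, where the median of all members was 0.50. With 1 array left out the medians were 0.55 to 1.00 for all members, 0.39 to 1.07 for type I and 0.72 to 0.99 for gamma. With no filter more genes are tested, and leaving out an array leaves its genotype with 1 array that is assumed to vary like the others; the cause of the other changes was not tested.

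The median over all genes went from 0.09 to 0.20 with normexp and the 75th percentile, and members' differences under that setting are relative to it. The sign turned for Iigp1 on its dimmer probe (0.30), for Ifi44 with that normexp setting (0.0004), and for 7 members that did not pass when 1 array was left out. Their ranges were -0.060 to 0.69 for Dhx58, -0.11 to 0.41 for Gbp4, -0.21 to 0.70 for Ifih1, -0.15 to 0.81 for Ifit1, -0.25 to 0.78 for Oasl2, -0.13 to 0.39 for Psmb10 and -0.067 to 0.13 for Tap1. All 7 were below 0 without homozygous replicate 1 (Gbp4, Ifit1 and Oasl2 also without wild-type replicate 1, Tap1 also without wild-type replicate 2). No label says whether replicate numbers pair the embryos. Deviations of replicate 1 across genes correlated at 0.00822 between wild type and heterozygous and at -0.16 between wild type and homozygous. Between heterozygous and homozygous the correlation was 0.255. With no reference for what a pair would show, these values do not settle the pairing. With the replicate number as a block, 15 members were higher and 1 lower against wild type, and 12 and 1 against heterozygous embryos. Signal over background left Irf7 and Oas3 untested, and the background correction moved called members by over 1.5 times, with normexp and quantile scaling for 7 of the 21.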
